A study of Mus musculus with 12 samples.

Results

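The comparison described here is low-dose penicillin against no antibiotic in mice on a high-fat diet. It rests on 6 of the 12 livers of the series, 3 mice given penicillin and 3 controls, chosen by their titles alone. It covers the 13788 genes that were named by a single symbol and passed a filter on signal. The mice were C57BL6J males, an inbred laboratory strain, killed at 30 weeks of age. Penicillin high-fat mice drank water with penicillin at 6.7 mg/L, began life on chow with 13.5% of its energy as fat and were moved at 17 weeks to a diet with 45%. Control high-fat mice had the same diets and the same switch and no antibiotic. Penicillin chow and control chow mice, 3 of each, stayed on chow and are used for levels and for the test of whether the penicillin difference depends on diet. The labels call the 3 mice of a group biological replicates, and cage, litter and the start of dosing were not used here. Single livers are named by group and replicate number, as in penicillin high-fat 2.

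Antibiotics in drinking water act first on the gut bacteria, and the liver meets their products through the portal vein. A liver under high-fat feeding stores triglyceride in droplets inside hepatocytes, a state in which the nuclear receptor PPAR gamma, scarce in lean liver, is known to drive genes that fat cells use for the same purpose. Male mouse liver also carries a program of steroid and drug-metabolising genes that is kept up by the pulsed release of growth hormone through STAT5b.

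All values are log2 expression as the authors normalised it with RMA, so 1 unit is a factor of 2, and a difference is the mean of 3 penicillin mice minus the mean of 3 controls. Each difference carries the standard error of the fit, and the adjusted p is limma's with the Benjamini-Hochberg procedure over 13788 genes. Arrays give no read depth, and a difference in signal from a whole liver cannot tell fewer cells of a type from less RNA per cell. Within each high-fat group the arrays correlated at 0.9915 to 0.9951. The first principal component of the 6 livers held 40.8% of their variance, with penicillin mice at 19.5, 0.1 and 13.4 and control mice at -6.0, -9.4 and -17.5, so that penicillin high-fat 2 lay nearest to the controls. That array also had the low 18S control signal, 11.81 against 13.29 and 13.17 in the other penicillin high-fat mice and 12.67 to 13.87 in control high-fat mice. A score of circadian phase (average of genes that peak with Per and Dbp, less the average of genes that peak with Bmal1) stood at -1.55, 0.11 and -0.37 in the penicillin mice and at -0.67, 0.16 and 0.70 in the controls, lowest in penicillin high-fat 1. Their part in the results was not tested beyond fits with each measure as a covariate or without low-18S arrays.

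On high-fat diet 47 genes differed between penicillin and control mice, 0.341% of those tested, at an adjusted p under 0.05. Of these, 35 were higher (0.254%) and 12 lower (0.087%), 21 of the higher by at least 2-fold and 4 of the lower. In all 47 the 3 penicillin mice lay on 1 side of the 3 controls, which was also so for 17.3% of all genes tested (9.5% above the controls, 7.85% below). At an unadjusted p under 0.05 there were 1396 genes, or 10.1%. The difference of all genes had a 5th percentile of -0.23 and a 95th of 0.30. The plot of the 47 differences runs from 3.70 for Cidea to -3.83 for Hsd3b5. Of the 35 higher genes, 33 stood above all 9 other mice of the series, chow-fed mice included, the exceptions being Gstm3 and Car2, and all 12 lower genes stood below them. Over all genes tested 4% stood above the 9 and 2.36% below, and the called genes had already been chosen for lying apart from 3 of the 9.

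**Figure D1:**
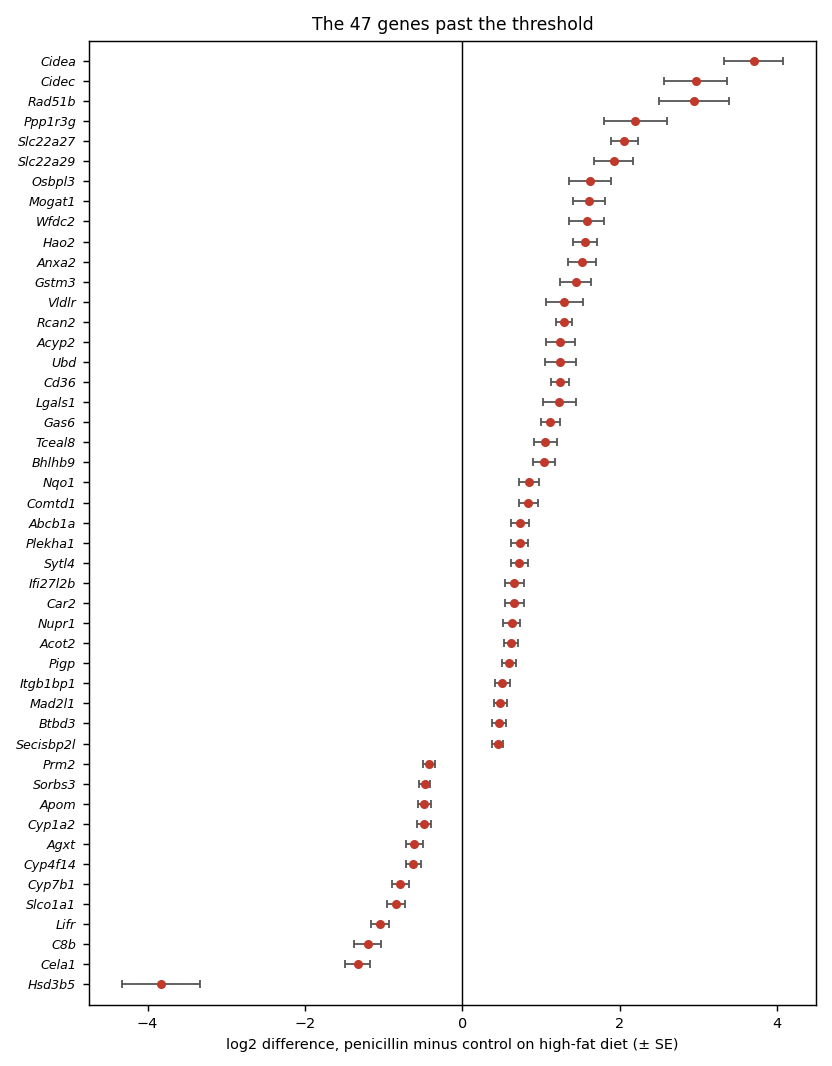
Differences in log2 expression (x axis), penicillin minus control on high-fat diet, for the 47 genes past an adjusted p of 0.05, one per row and sorted by size. Points are differences of means of 3 mice and bars the standard error. Cidea is highest at 3.70 ± 0.38 and Hsd3b5 lowest at -3.83 ± 0.50.

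The size of the count depended on single livers. Leaving out a penicillin high-fat mouse gave 21 (mouse 1), 113 (mouse 2) or 30 (mouse 3). Leaving out a control high-fat mouse gave 22 (mouse 1), 24 (mouse 2) or 24 (mouse 3), and leaving out penicillin chow 1, which enters through the pooled spread, gave 95. Of the 47 genes, 17 passed in every one of the 12 fits on 11 arrays. They were Cidea, Cidec, Cd36, Mogat1, Rcan2, Slc22a27, Slc22a29, Wfdc2, Hao2, Anxa2, Gstm3, Gas6, Bhlhb9, Hsd3b5, Cyp7b1, Lifr and Cela1. C8b, Acyp2, Sorbs3 and Ubd passed in 8 of the 12, and Rad51b, Osbpl3 and Cyp4f14 in 7. In these counts of 12, the fits without a chow array keep the high-fat difference and change only the pooled spread. In the 6 fits without a high-fat array, C8b, Acyp2, Sorbs3 and Ubd passed in 2. Rad51b, Osbpl3 and Cyp4f14 passed in 1 of those 6, and Lgals1, Apom, Cyp1a2 and Prm2 in 0.

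Lipid droplet proteins led the genes that rose. The CIDE proteins sit where droplets touch and let the smaller pass its fat into the larger; Cidea and Cidec belong to brown and white fat cells, while Cideb is the form of normal hepatocytes. Cidea read 9.73, 8.14 and 9.79 in penicillin high-fat mice 1, 2 and 3, against 5.57, 5.59 and 5.41 in control high-fat mice. The groups were far apart, although penicillin high-fat 2 was lower than its group. The difference was 3.70 ± 0.38, or 13.0-fold (adjusted p = 0.00154). Cidec read 8.66, 7.93 and 8.94 in penicillin mice and 5.17, 5.78 and 5.70 in controls, a rise of 2.96 ± 0.39 (adjusted p = 0.00841). Cideb did not move with them: it read 12.05, 12.18 and 12.16 in penicillin mice and 12.07, 12.16 and 12.13 in controls, with a difference of 0.01 ± 0.07 and a 95% interval from -0.15 to 0.17.

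The perilipins, which coat droplets and gate lipases, gave smaller values. Plin4 stood at 1.31 ± 0.35, Plin2 at 0.40 ± 0.17, Plin3 at 0.31 ± 0.08 and Plin5 at 0.11 ± 0.12, with adjusted p of 0.174, 0.430, 0.174 and 0.816. Plin4 read 9.51, 7.88 and 8.88 in penicillin mice and 7.37, 7.99 and 6.98 in controls, so the groups overlapped. Of 13 droplet proteins tested 2 rose and 0 fell, all 13 differences were positive, and their median was 0.30. Over all genes tested 0.254% rose, 0.087% fell and 49.8% of differences were positive. The gene lists here and below were chosen with earlier results of these data known, so their counts describe the lists and test nothing.

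Some targets of PPAR gamma rose beside them. Of 15 tested members of a list of the receptor and its adipogenic targets, 5 rose and 0 fell, namely Cidea and Cidec, counted above, with Cd36, Mogat1 and Vldlr. Over all genes tested 0.254% rose. The list's median was 0.40, with 10 positive and 5 negative differences, the lowest being Fabp5 at -0.71 ± 0.40. Cd36, the scavenger receptor through which cells take up long-chain fatty acids, read 11.38, 11.15 and 11.29 in penicillin mice and 10.09, 10.09 and 9.93 in controls. Its groups lay more than a unit apart with little spread in either, and the rise was 1.24 ± 0.11 (adjusted p = 0.000551). The other Cd36 probe sets gave 1.26 and 1.51. Mogat1, which joins an acyl chain to monoacylglycerol, read 7.63, 8.15 and 8.11 in penicillin mice and 6.71, 6.31 and 6.05 in controls and rose by 1.60 ± 0.21 (adjusted p = 0.00728). Vldlr, a receptor for triglyceride-rich lipoproteins, read 7.41, 6.84 and 7.28 in penicillin mice and 5.83, 6.004 and 5.80 in controls, a rise of 1.29 ± 0.24 at an adjusted p of 0.0498. It passed in 4 of 12 fits without an array, with adjusted p up to 0.214, and its other 5 probe sets gave differences from 0.07 to 1.01.

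Pparg itself read 8.36, 8.75 and 7.92 in penicillin mice and 7.70, 7.69 and 7.26 in controls. All 3 penicillin mice were above the controls, and the difference of 0.79 ± 0.30 did not pass (adjusted p = 0.388). Fabp4, the fatty acid binding protein of fat cells and macrophages, read 9.55, 9.44 and 9.68 in penicillin mice and 9.72, 9.20 and 8.94 in controls, and the groups overlapped. Adipoq, which defines fat cells, read 3.37, 3.35 and 3.15 in penicillin mice and 3.13, 3.32 and 3.14 in controls and Lep read 4.13, 4.20 and 4.03 and 4.46, 4.09 and 4.14, all below the filter at log2 5.0. The count of PPAR gamma targets that rose was between 4 and 6 in the 12 fits without an array.

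Both Mogat1 and Cd36 hold letters close to the PPAR response element in the 300 bases around their RefSeq start. These bases are 250 before the start and 50 after it, in build GRCm38.p6. Both genes are shown as the members of the list that rose and held such letters. Cidec and Vldlr also rose and held no such letters in their windows, and the bases around the start of Cidea were not searched. The motif searched was AGGTCA and a second AGGTCA in the same direction with 1 free base between the copies, on both strands, with up to 2 mismatches. Capitals mark the match, which lies 51 to 39 bases before the start of Mogat1 (chr1:78510810-78511109, plus strand) and 63 to 51 bases before that of Cd36 (chr5:17835847-17836146, minus strand), the second in the reverse orientation.
Mogat1: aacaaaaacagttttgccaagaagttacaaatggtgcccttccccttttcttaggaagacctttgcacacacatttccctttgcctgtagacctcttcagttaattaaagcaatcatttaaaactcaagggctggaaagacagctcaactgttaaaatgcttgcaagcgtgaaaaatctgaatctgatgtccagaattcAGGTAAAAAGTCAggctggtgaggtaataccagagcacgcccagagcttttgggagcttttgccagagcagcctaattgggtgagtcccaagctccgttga
Cd36: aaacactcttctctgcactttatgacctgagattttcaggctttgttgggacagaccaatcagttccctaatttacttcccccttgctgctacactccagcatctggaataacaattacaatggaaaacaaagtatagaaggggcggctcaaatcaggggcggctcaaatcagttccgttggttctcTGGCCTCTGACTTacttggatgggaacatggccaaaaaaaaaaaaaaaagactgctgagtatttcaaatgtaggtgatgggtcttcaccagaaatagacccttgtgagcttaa
Slco1a1 is shown beside them because it fell and yet carries the closest match, with 1 mismatch, 134 to 122 bases before its start in the reverse orientation (chr6:141946913-141947212, minus strand).
Slco1a1: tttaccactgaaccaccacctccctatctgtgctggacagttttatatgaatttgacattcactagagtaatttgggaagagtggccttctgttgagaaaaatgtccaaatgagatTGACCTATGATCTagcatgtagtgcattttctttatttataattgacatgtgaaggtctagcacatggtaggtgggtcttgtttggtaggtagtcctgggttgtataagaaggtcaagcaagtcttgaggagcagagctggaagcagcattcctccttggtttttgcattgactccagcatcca
Of 41 called genes with a window, 3 held such letters, or 7.3%, against 4.4% of 27025 genes with a window. The share among called genes is near that of all genes, and these letters are a description of the windows, not a site. The same windows held the STAT5 palindrome TTCNNNGAA in 2 of the 41 genes (4.9%, against 9.6% of all genes), Nupr1 and Sytl4. They held the core of the antioxidant response element, TGACNNNGC, in 7 (17.1%, against 14% of all genes), with neither Gstm3 nor Nqo1 among them. The core of the xenobiotic response element, GCGTG, was in 12 (29.3%, against 35.2% of all genes).

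**Figure D2:**
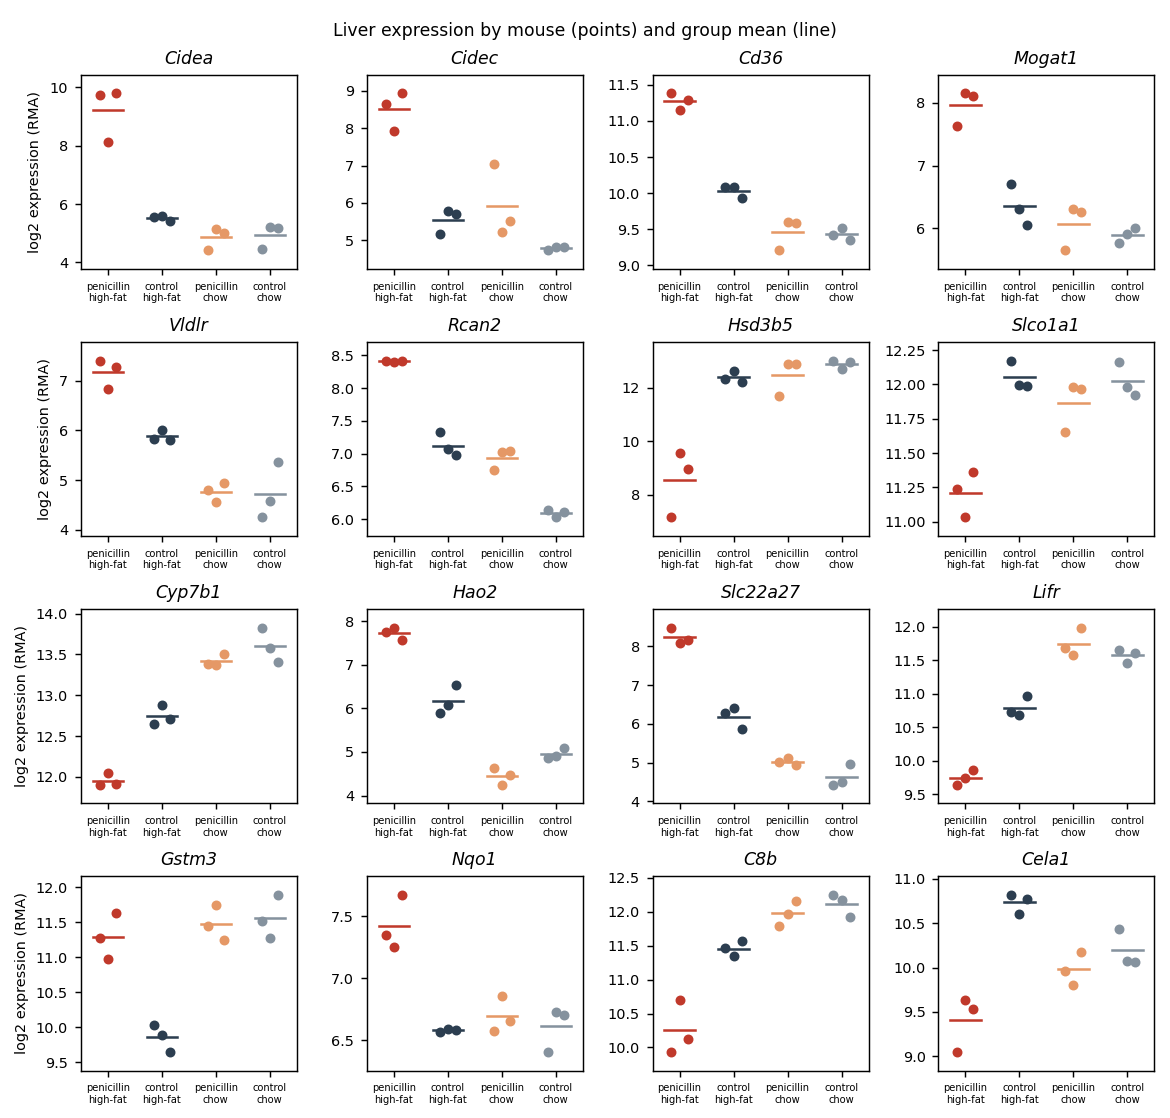
Log2 expression (RMA; y axis, scaled to each gene) of 16 genes that changed on high-fat diet, by group (x axis), with a point per mouse and a line at the mean of 3. In every panel the 3 penicillin high-fat mice lie apart from the 3 control high-fat mice, while for Gstm3 they lie at the level of the chow groups.

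Other steps of fat handling gave fewer calls. Of 14 enzymes of glycerolipid synthesis, Mogat1 rose and 0 fell (median 0.08). Gpam, the mitochondrial acyltransferase that starts the path, stood at 0.56 ± 0.21, Dgat1 and Dgat2, which add the last acyl chain, at 0.05 ± 0.10 and -0.25 ± 0.09, and the phosphatidate phosphatase Lpin1 at -0.39 ± 0.38, none past the threshold. Among 13 genes of fatty acid uptake and binding, Cd36 and Vldlr rose. The hepatic binding protein Fabp1 differed by 0.02 ± 0.06 and the transporters Slc27a1, Slc27a2 and Slc27a5 by -0.10 ± 0.10, -0.08 ± 0.07 and -0.12 ± 0.07, and none of them passed. None of 8 genes of lipolysis passed. Lipe stood at -0.41 ± 0.12, Pnpla2 at -0.14 ± 0.08, Mgll at 0.30 ± 0.11 and the lipase inhibitor G0s2 at -0.11 ± 0.21.

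De novo lipogenesis builds fatty acids from sugar carbon. Its 15 genes gave 0 calls and 14 positive differences (median 0.17), where 49.8% of all genes tested were positive. Fasn, the fatty acid synthase, read 12.03, 12.39 and 11.33 in penicillin mice and 11.43, 11.51 and 10.66 in controls, and 1 penicillin mouse lay within the control range. Its difference was 0.72 ± 0.31 (adjusted p = 0.462), beside 0.56 ± 0.22 for Acly, 0.35 ± 0.35 for Elovl6 and 0.04 ± 0.09 for Scd1. The regulators Srebf1 and Mlxipl stood at 0.17 ± 0.28 and -0.39 ± 0.12. None of 18 genes of cholesterol synthesis and uptake passed (median -0.06, Sqle at -0.47 ± 0.54).

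Oxidation genes under PPAR alpha, the receptor of fasting, numbered 22, of which 17 were positive and 0 passed (median 0.09). Pdk4, a kinase that spares pyruvate from oxidation, read 9.06, 7.10 and 7.61 in penicillin mice and 6.72, 6.33 and 5.89 in controls. The penicillin mice were all higher, with penicillin high-fat 1 well above the other two, and the difference of 1.61 ± 0.41 did not pass (adjusted p = 0.147). Ppara stood at -0.17 ± 0.12, Cpt1a at -0.19 ± 0.11 and the Cyp4a hydroxylase gene Cyp4a14 at 0.42 ± 0.27. Acot2, a mitochondrial acyl-CoA thioesterase that was on no list, read 9.64, 9.49 and 9.42 in penicillin mice and 8.84, 8.89 and 8.98 in controls and rose by 0.61 ± 0.09 (adjusted p = 0.0126).

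Among genes of the male liver program 4 of 10 tested fell and 0 rose, with a median of -0.57. Over all genes tested 0.087% fell. Like the other lists, this one was chosen with earlier results of these data known. Hsd3b5, which encodes a steroid-reducing enzyme of adult male mouse liver, read 7.15, 9.57 and 8.96 in penicillin mice and 12.33, 12.63 and 12.22 in controls. Every penicillin mouse was at least 2 units below every control, and penicillin high-fat 1 was the lowest. The gene fell by 3.83 ± 0.50, to 14.2-fold lower (adjusted p = 0.00739). Slco1a1, an organic anion uptake transporter of the sinusoidal membrane, read 11.24, 11.03 and 11.36 in penicillin mice and 12.18, 11.999 and 11.99 in controls and fell by 0.84 ± 0.12 (adjusted p = 0.00901). Its other probe set gave -0.82, and without control high-fat 1 its adjusted p was 0.0543. Cyp7b1, the oxysterol 7-alpha-hydroxylase of the alternative bile acid path, read 11.91, 12.04 and 11.91 in penicillin mice and 12.64, 12.88 and 12.71 in controls and fell by 0.79 ± 0.11 (adjusted p = 0.00861). C8b, a chain of the terminal complement complex, read 9.94, 10.70 and 10.12 in penicillin mice and 11.47, 11.34 and 11.56 in controls and fell by 1.20 ± 0.17 (adjusted p = 0.0119).

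Other male-biased genes were not called. Susd4 read 7.75, 8.48 and 8.07 in penicillin mice and 9.14, 9.05 and 8.97 in controls, without overlap, and missed the threshold at -0.95 ± 0.19 (adjusted p = 0.0751). Cyp2d9 stood at -0.24 ± 0.08 and Elovl3 at 0.53 ± 0.43, the second in the opposite direction. The count of male-biased genes that fell was 2 without control high-fat 1 and 3 to 5 in the other 11 fits.

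Of 10 tested genes that are higher in female liver, 1 rose and 0 fell (median 0.21). It was Hao2, a peroxisomal oxidase of 2-hydroxy acids, which read 7.74, 7.85 and 7.58 in penicillin mice and 5.89, 6.08 and 6.53 in controls. No control reached the lowest penicillin mouse, and the rise was 1.56 ± 0.15 (adjusted p = 0.00141). Cyp2b9 read 9.69, 10.88 and 11.18 in penicillin mice and 9.14, 9.40 and 10.03 in controls, with overlap and a difference of 1.06 ± 0.51 (adjusted p = 0.531), and Cux2, a repressor of male-biased genes in female liver, stood at 0.06 ± 0.07.

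The signalling genes above this program were not called. Of 16 genes of the growth hormone and STAT5 axis 0 passed, with a median of -0.09. The receptor Ghr stood at 0.08 ± 0.10, Stat5b at 0.06 ± 0.16, the feedback inhibitor Socs2 at -0.76 ± 0.51 and the repressor Bcl6 at 0.24 ± 0.78, whose penicillin mice ranged from 6.45 to 9.27 and controls from 6.71 to 8.26. Igf1, the main endocrine product of the axis, read 12.65, 12.81 and 12.68 in penicillin mice and 12.99, 12.96 and 13.11 in controls. The penicillin mice were all lower and the difference was -0.31 ± 0.08 (adjusted p = 0.140). Its carrier Igfbp2 stood at -0.55 ± 0.11 (adjusted p = 0.0751).

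Lifr, the receptor that pairs with gp130 to carry signals of leukaemia inhibitory factor, read 9.64, 9.74 and 9.86 in penicillin mice and 10.73, 10.69 and 10.97 in controls. It fell by 1.04 ± 0.12 (adjusted p = 0.00272), and its other probe sets gave -0.67 and -0.55. Of 7 receptors and mediators of the gp130 family it was the 1 that passed. The shared chain Il6st stood at -0.16 ± 0.10, Il6ra at -0.27 ± 0.27 and Osmr at 0.14 ± 0.22.

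The antioxidant response under NRF2 leaned upward as a whole. Of 18 tested members 2 rose and 0 fell, and all 18 differences were positive with a median of 0.50, against 49.8% of all genes positive. In 10 of the 18 every penicillin mouse was above every control, which was so for 9.5% of all genes tested. Gstm3, a glutathione S-transferase, read 11.27, 10.98 and 11.63 in penicillin mice and 10.03, 9.89 and 9.65 in controls and rose by 1.44 ± 0.19 (adjusted p = 0.00866). Both chow groups stood near the penicillin level, at 11.48 in penicillin chow and 11.56 in control chow mice. Its other probe set gave 1.19, and the one used can share probes with related transferases. Nqo1, a quinone reductase, read 7.35, 7.25 and 7.67 in penicillin mice and 6.57, 6.59 and 6.58 in controls, a rise of 0.84 ± 0.12 (adjusted p = 0.0119). Nqo1 passed in 9 of 12 fits and missed in those that dropped a control high-fat mouse, with adjusted p up to 0.0586.

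Further members lay just outside the threshold. Ugdh, which makes the sugar acid used in glucuronidation, read 12.07, 11.91 and 11.96 in penicillin mice and 11.24, 11.43 and 10.87 in controls (difference 0.80 ± 0.15, adjusted p = 0.0501). Like Gstm3 it stood nearer the penicillin level on chow, at 12.14 in penicillin chow and 11.81 in control chow mice. Nqo1, at 6.70 and 6.61 there, stood nearer the control high-fat level. Ephx1 stood at 0.93 ± 0.20 and Gstm4 at 0.74 ± 0.16, with adjusted p of 0.0880 and 0.0929. Gclc, the rate-limiting enzyme of glutathione synthesis, stood at 0.84 ± 0.32, Nfe2l2, which encodes NRF2, at 0.37 ± 0.16 and Hmox1 at 0.04 ± 0.31. The count of NRF2 members that rose was 1 when control high-fat 1 or 3 was dropped and 4 when penicillin chow 1 was. It was 6 with array weights and 4 with the mean of all probe sets of a gene.

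Xenobiotic receptors and their targets gave 1 call among 13 genes. Cyp1a2, an aryl hydrocarbon receptor target and a main drug-metabolising enzyme of the central lobule, read 11.67, 11.65 and 11.72 in penicillin mice and 12.17, 12.22 and 12.10 in controls. It fell by 0.49 ± 0.09 (adjusted p = 0.0446), with little spread in either group, and passed in 3 of 12 fits, with adjusted p up to 0.182. Cyp1a1 stood at 0.26 ± 0.12 and Ahr at 0.22 ± 0.24. Cyp2b10, the classical target of CAR, differed by 0.17 ± 0.22 and Cyp3a11, that of PXR, by 0.16 ± 0.10. Among 9 Cyp4 hydroxylases Cyp4f14, which inactivates leukotriene B4, fell: it read 10.67, 10.83 and 10.57 in penicillin mice and 11.39, 11.23 and 11.31 in controls, a fall by 0.62 ± 0.10 (adjusted p = 0.0191). Its relatives Cyp4f13 and Cyp4f15 stood at -0.32 ± 0.10 and -0.18 ± 0.09.

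A pair of organic anion transporter genes of the Slc22 family rose together. Slc22a27 read 8.48, 8.09 and 8.16 in penicillin mice and 6.29, 6.41 and 5.85 in controls, a rise of 2.06 ± 0.17 (adjusted p = 0.000390). Slc22a29 read 8.97, 8.64 and 8.94 in penicillin mice and 6.68, 7.18 and 6.91 in controls and rose by 1.92 ± 0.25 (adjusted p = 0.00728). Both probe sets are of the kind that contains probes matching other transcripts, so signal of near-identical family members cannot be separated. Of 10 tested members these 2 rose and 0 fell, with Slc22a7 at -0.84 ± 0.29 and Slc22a30 at 0.01 ± 0.14.

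**Figure D3:**
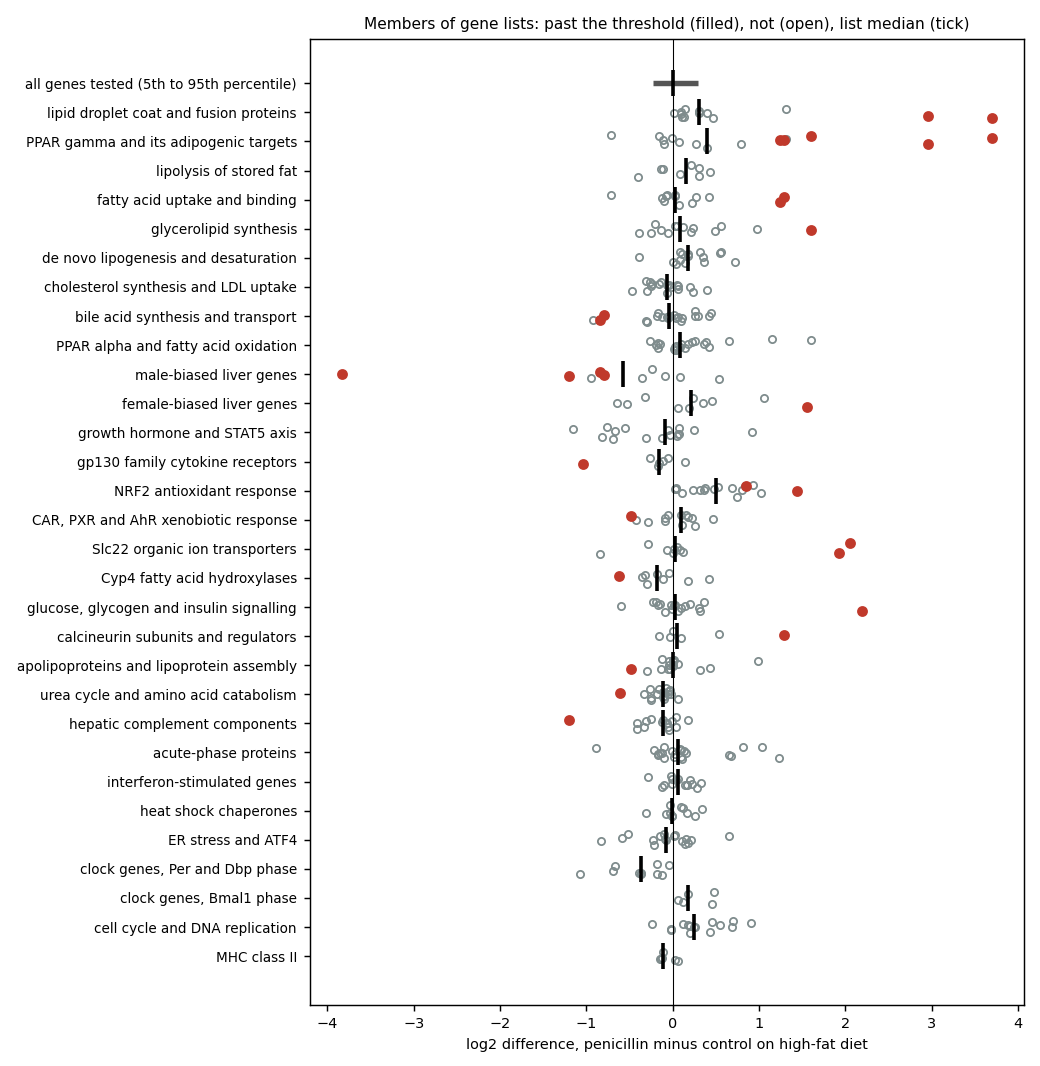
Log2 differences, penicillin minus control on high-fat diet (x axis), of the tested members of 30 gene lists (rows). Filled points passed an adjusted p of 0.05, open points did not, ticks mark list medians, and the grey bar spans the 5th to the 95th percentile of all genes tested, -0.23 to 0.30. NRF2 members all lie right of 0 (median 0.50), and male-biased genes have the lowest median, -0.57.

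In carbohydrate handling 1 of 18 genes passed. Ppp1r3g, which targets protein phosphatase 1 to glycogen after feeding, read 8.39, 7.88 and 7.44 in penicillin mice and 5.44, 6.85 and 4.84 in controls. Every penicillin mouse was above every control although control high-fat 2 came close, and the rise of 2.20 ± 0.40 had an adjusted p of 0.0498. It passed in 2 of 12 fits without an array. The related subunits Ppp1r3b and Ppp1r3c stood at 0.37 ± 0.41 and 0.20 ± 0.48, the synthase Gys2 at -0.16 ± 0.16, the gluconeogenic enzymes G6pc and Pck1 at 0.30 ± 0.41 and -0.15 ± 0.22. Irs2, an adaptor of the insulin receptor, read 7.06, 7.06 and 7.28 in penicillin mice and 7.74, 7.89 and 7.55 in controls, lower in all 3 penicillin mice and not called at -0.60 ± 0.15 (adjusted p = 0.132).

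Rcan2, an inhibitor of the phosphatase calcineurin, read 8.41, 8.40 and 8.42 in penicillin mice and 7.33, 7.07 and 6.97 in controls, with hardly any spread among the penicillin mice. It rose by 1.29 ± 0.10 (adjusted p = 0.000390). A further probe set, dim on these arrays, gave 0.11. Of 6 calcineurin subunits and regulators it was the 1 called, with Rcan1 at 0.53 ± 0.25 and the catalytic subunit Ppp3ca at 0.01 ± 0.12.

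Secreted and metabolic products of hepatocytes made up further falls. Apom, the apolipoprotein that carries sphingosine-1-phosphate, read 12.17, 12.09 and 12.02 in penicillin mice and 12.73, 12.54 and 12.47 in controls and fell by 0.48 ± 0.08 (adjusted p = 0.0320), the 1 call among 18 apolipoprotein genes. Its other probe set gave -0.41, and it passed in 3 of 12 fits. Apoa4 stood at 0.99 ± 0.43, Apob at 0.06 ± 0.08 and Mttp, which loads fat onto apolipoprotein B, at 0.00 ± 0.08. Agxt, the peroxisomal aminotransferase that clears glyoxylate, read 11.38, 11.65 and 11.63 in penicillin mice and 12.01, 12.30 and 12.18 in controls and fell by 0.61 ± 0.11 (adjusted p = 0.0404). It passed in 4 of 12 fits, with adjusted p up to 0.182, and had an adjusted p of 0.133 in the fit that includes the circadian score. Agxt was the 1 call among 17 genes of the urea cycle and amino acid catabolism, of which 16 had a negative difference (median -0.11). Over all genes tested 49.8% of differences were positive. Cps1, Arg1 and Tat stood at -0.33 ± 0.08, -0.11 ± 0.07 and -0.10 ± 0.32. Of 15 complement genes C8b alone fell, and 12 differences were negative (median -0.11), with C8a at -0.25 ± 0.09 and Hc at -0.04 ± 0.09.

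Of 21 bile acid genes tested, Cyp7b1 and Slco1a1 fell, as given above, and the others gave no call. Cyp7a1, the rate-limiting enzyme of the classical path, read 10.01, 11.32 and 8.48 in penicillin mice and 10.19, 10.81 and 11.59 in controls, a spread within groups wider than the difference of -0.93 ± 0.83. Cyp8b1 stood at 0.09 ± 0.48, the export pump Abcb11 at -0.04 ± 0.13 and the uptake carrier Slc10a1 at -0.31 ± 0.11.

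Cela1, an elastase, read 9.05, 9.63 and 9.53 in penicillin mice and 10.82, 10.61 and 10.77 in controls and fell by 1.33 ± 0.16 (adjusted p = 0.00389). The other 5 tested markers of pancreatic acinar tissue gave no call. Of these Cela3b read 7.23, 7.14 and 7.13 in penicillin mice and 7.09, 7.26 and 7.13 in controls, and the other 4 lay between 4.69 and 5.97 on the 6 arrays. Sorbs3, an adaptor of cell adhesion, read 7.44, 7.47 and 7.48 in penicillin mice and 7.87, 8.05 and 7.90 in controls and fell by 0.48 ± 0.07 (adjusted p = 0.0126). Prm2, a sperm protamine, read 4.90, 4.89 and 4.79 in penicillin mice and 5.37, 5.29 and 5.19 in controls, around the filter at log2 5.0, and fell by 0.42 ± 0.08 (adjusted p = 0.0498). It passed in 1 of 12 fits without an array.

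Several of the largest rises belong to none of these lists. Rad51b, a gene of homologous recombination, read 9.82, 7.73 and 9.68 in penicillin mice and 5.87, 6.41 and 6.14 in controls, a rise of 2.94 ± 0.44 (adjusted p = 0.0131). As for Cidea, penicillin high-fat 2 was the lowest of its group, and its other probe set lay below the filter and gave 0.11. Osbpl3, an oxysterol-binding protein, read 7.69, 7.31 and 7.54 in penicillin mice and 5.70, 5.87 and 6.11 in controls and rose by 1.62 ± 0.26 (adjusted p = 0.0234), while its other measurable probe set gave 2.02. Wfdc2, a secreted protein with whey acidic domains, read 10.46, 9.61 and 10.27 in penicillin mice and 8.63, 8.81 and 8.18 in controls, a rise of 1.58 ± 0.22 (adjusted p = 0.00901). Acyp2, an acylphosphatase, read 8.98, 8.22 and 8.85 in penicillin mice and 7.47, 7.63 and 7.21 in controls and rose by 1.25 ± 0.18 (adjusted p = 0.0120).

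Anxa2 and Lgals1, which encode annexin A2 and galectin-1 and are found in many non-hepatocyte cells, were also higher. Anxa2 read 10.31, 9.97 and 10.35 in penicillin mice and 8.76, 8.73 and 8.58 in controls, a rise of 1.52 ± 0.17 (adjusted p = 0.00336). The other Anxa2 probe set above the filter gave a smaller difference, 0.79. Lgals1 rose by 1.23 ± 0.21 and passed in 4 of 12 fits, and Gas6, the ligand of the TAM receptors, rose by 1.11 ± 0.12. The other Gas6 probe set above the filter gave -0.07. Ubd, a ubiquitin-like modifier, rose by 1.24 ± 0.20, Tceal8 by 1.05 ± 0.15, Bhlhb9 by 1.04 ± 0.14, the methyltransferase gene Comtd1 by 0.84 ± 0.12 and Abcb1a, a drug efflux pump, by 0.73 ± 0.11. The remaining 10 rises were between 0.45 and 0.73. They were Plekha1, Sytl4, Ifi27l2b, the carbonic anhydrase Car2, the stress protein Nupr1, Pigp of glycosylphosphatidylinositol synthesis, Itgb1bp1, the spindle checkpoint gene Mad2l1, Btbd3 and Secisbp2l. Of these Car2 and Itgb1bp1 passed in 3 of 12 fits, Btbd3 in 4, Ifi27l2b in 5, Mad2l1 and Nupr1 in 6 and the others in 8 or 9. Of the 47 genes 20 had further probe sets. Among 17 such probe sets above the filter, 16 had the sign of the one used.

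Markers of other cells were read beside these genes. Stellate cell and matrix markers had 10 of 12 positive differences, a median of 0.29 and 0 calls. In 5 of them all 3 penicillin mice were above the controls, which was so for 9.5% of all genes tested. Col3a1, a fibrillar collagen, read 9.88, 9.45 and 9.82 in penicillin mice and 8.91, 8.77 and 8.82 in controls, at 0.88 ± 0.17 (adjusted p = 0.0670). Their summed level, as log2, ran from 12.81 to 13.18 in penicillin mice and from 12.82 to 13.01 in controls. Macrophage markers had 13 of 15 negative differences, a median of -0.15 and 0 calls. Their summed level was 13.48 to 14.08 in penicillin mice and 13.92 to 14.04 in controls. The 12 endothelial markers had 10 negative differences, a median of -0.06 and 0 calls. Hepatocyte markers had a median of -0.04 over 6, and their summed level was 17.00 to 17.02 in penicillin mice and 17.03 to 17.07 in controls. Of 7 T and NK cell, 4 B cell, 3 neutrophil, 3 cholangiocyte and 1 erythroid markers tested 0 passed. The part of the matrix markers in the rises of Anxa2, Lgals1 and Gas6 was not tested.

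The lists of inflammatory and stress genes gave no call, while Nupr1 and Ifi27l2b, named above, were on none of them. The 22 acute-phase genes had a median of 0.06, with Saa1 at 0.81 ± 0.77, Lcn2 at 1.03 ± 1.22 and Hp at 0.15 ± 0.09. Hamp, the iron hormone hepcidin, read 12.06, 12.20 and 12.40 in penicillin mice and 13.30, 13.26 and 12.76 in controls and missed the threshold at -0.89 ± 0.18 (adjusted p = 0.0753). None of 15 interferon-stimulated, 11 heat shock, 17 ER stress and 6 MHC class II genes passed, with medians of 0.06, -0.01, -0.07 and -0.12. Ifi27l2a stood at 0.29 ± 0.09, Hspb1 at 0.26 ± 0.31, Ddit3 at 0.17 ± 0.24, Asns at -0.52 ± 0.45, Hspa5 at -0.09 ± 0.13, H2-Aa at -0.13 ± 0.18 and Cd74 at -0.12 ± 0.16.

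Clock genes of the Per and Dbp phase were all 10 negative, with a median of -0.37 and 0 called. Dbp read 8.97, 11.31 and 11.28 in penicillin mice and 10.80, 11.63 and 12.34 in controls, where penicillin high-fat 1 stood alone far below the rest, and Per2 and Arntl stood at -0.37 ± 0.52 and 0.47 ± 0.47. Cell cycle and replication genes had a median of 0.25 over 15, 12 positive and 0 called. Mcm2, a subunit of the replicative helicase, read 7.71, 7.61 and 7.48 in penicillin mice and 7.11, 7.12 and 7.22 in controls (difference 0.45 ± 0.10, adjusted p = 0.0842), Ccnd1 stood at 0.70 ± 0.31 and Mki67 at 0.25 ± 0.10.

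Whether the penicillin difference on high-fat diet exceeded that on chow was tested in the same fit as an interaction. On chow 1 gene of 13788 passed (0.00725%), Rcan2, which was 0.85 ± 0.10 higher in penicillin chow mice. Of the 47 genes called on high-fat diet, 5 passed the interaction, which called 0.0435% of all genes (0.0363% with the higher difference on high-fat diet). The interaction contains the high-fat difference by which the 47 were chosen, so a larger share among them was built in. Cd36 averaged 9.47 in penicillin chow mice and 9.44 in control chow mice, so its interaction was 1.21 ± 0.15 (adjusted p = 0.0323). Lifr averaged 11.75 in penicillin chow mice and 11.57 in control chow mice, with an interaction of -1.22 ± 0.16 (adjusted p = 0.0323). Cidea, Hao2 and Slc22a27 gave 3.80 ± 0.53, 2.06 ± 0.22 and 1.66 ± 0.24. They averaged 4.86, 4.45 and 5.03 in penicillin chow mice and 4.96, 4.95 and 4.63 in control chow mice, near or below the filter, where a difference cannot be read.

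The other 42 genes did not pass this test, which leaves a difference between diets unshown. Hsd3b5 averaged 12.48 in penicillin chow mice and 12.88 in control chow mice, and its interaction of -3.43 ± 0.70 had an adjusted p of 0.192. Mogat1 gave 1.43 ± 0.29 (adjusted p = 0.190), Anxa2 1.43 ± 0.25 (0.108), Gstm3 1.52 ± 0.28 (0.135) and Rcan2 0.44 ± 0.15 (0.649). Of the 35 higher genes 21 were also positive on chow, and 7 had all 3 penicillin mice above the controls there, as had 4.79% of all genes. Of the 12 lower genes 10 were also negative on chow and 2 did not overlap, against 7.04% of all genes. The interaction count of 6 rested on single mice. It was 0 when penicillin high-fat 1, penicillin chow 3 or control chow 2 was dropped, 1 for penicillin high-fat 3 or either of control high-fat 1 and 3, 3 for penicillin chow 1 or 2, and 10 for control chow 3.

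**Figure D4:**
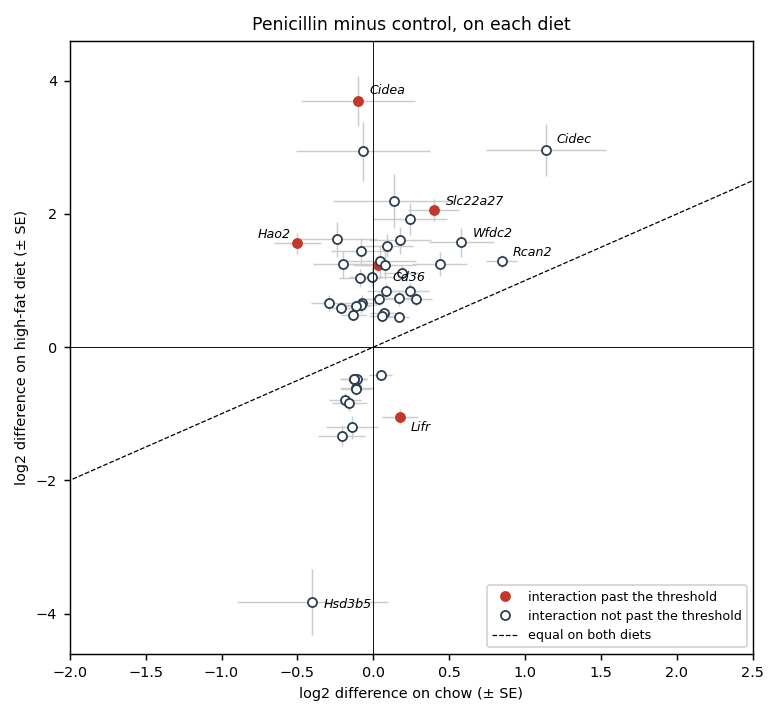
Penicillin minus control on chow (x axis) and on high-fat diet (y axis), as log2 differences with standard errors, for the 47 genes called on high-fat diet; the axes have different scales. Filled points (Cidea, Slc22a27, Hao2, Cd36 and Lifr) passed the interaction, and the dashed line marks equal differences on both diets.

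Group means are given side by side for some of these genes, chosen after their values were seen, with no test between diets. Rcan2 averaged 8.41 in penicillin high-fat, 7.12 in control high-fat, 6.94 in penicillin chow and 6.09 in control chow mice. Slc22a27 averaged 8.24, 6.19, 5.03 and 4.63 in the same order, Wfdc2 10.11, 8.54, 7.86 and 7.28, and Lifr 9.75, 10.79, 11.75 and 11.57. In each of these the penicillin high-fat mice lay farthest from control chow mice. Cyp7b1 averaged 11.95 in penicillin high-fat, 12.74 in control high-fat, 13.42 in penicillin chow and 13.61 in control chow mice. Slco1a1 followed another order, at 11.21 in penicillin high-fat mice and 12.05, 11.87 and 12.02 in the others. Cela1 averaged 9.40 in penicillin high-fat mice, below both chow groups at 9.98 and 10.19, and 10.73 in control high-fat mice, above them.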

How the data were processed

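Liver RNA of 12 mice was hybridised to Affymetrix 3′ arrays, 1 array per mouse. The authors deposited 1 table of log2 values for 45101 probe sets, which per the submitters' processing notes came from RMA and affy, with versions not given in the sources used here. The method equalises the distributions of the arrays, so differences are relative to the bulk of genes. Array medians were 5.52 to 5.59.

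Of the probe sets, 34945 had 1 gene symbol in GEO's platform annotation and 932 several, which were not used. For 18193 genes the brightest probe set on average was kept, and 13788 genes above log2 5.0 (the 40th percentile of all values) on at least 3 arrays were tested. Limma (version 3.58.1, R 4.3.3) was fitted to 4 group means on 12 arrays with 8 residual degrees of freedom, and eBayes p-values were adjusted by Benjamini-Hochberg. The median standard error was 0.10, and precision is limited by the number of arrays. The p-values reflect the spread among these mice only. On simulated data for this comparison over 13788 genes the fit recovered 60% of 50 genes changed by 0.5 log2 units. It recovered 92% of those changed by 1, 94% by 2 and 100% by 3, with 11 false calls among 184. The simulated noise was independent between genes, and more genes passed than the 47 of the data, so recovery in the data may be lower.

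The rule for named genes takes every gene past the threshold, with values of every mouse for the 15 higher and 12 lower genes of largest difference and for called list members. It adds the measured key genes of each list and up to 4 further members of smallest p. The groups, gene lists and rules were chosen with earlier results of these data known. The replicate numbers of penicillin and control mice on high-fat diet were checked for pairing. Promoter windows were RefSeq's for GRCm38.p6, without chromosome 18. Alternatives covered the filter, probe set choice, normalisation, array weights, variance prior, arrays, replicate block, covariates, thresholds and leaving out each array. Fits without 3 arrays of low 18S signal were added after seeing the data.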

Additional observations from a re-analysis of the deposited data

Results flagged for a closer look

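For 6 genes the limma interaction between penicillin and diet passed, a count that fell to 0 when any of 3 single mice was dropped. The difference of differences was 1.21 for Cd36, 3.80 for Cidea, 2.06 for Hao2, 1.66 for Slc22a27 and -1.22 for Lifr, all called on high-fat diet. On chow Cidea, Hao2 and Slc22a27 lay near or below the filter, so the sizes of their values cannot be read exactly. For Ifi27l2a the difference of differences was 0.97 ± 0.13 (adjusted p = 0.0323). The gene was not called on high-fat diet and read 8.25, 8.13 and 7.99 in penicillin high-fat mice and 7.84, 7.95 and 7.71 in control high-fat mice, a difference of 0.29 ± 0.09. More of it lay on chow, where the gene averaged 6.96 in penicillin mice and 7.64 in controls without overlap, at -0.68 ± 0.09 (adjusted p = 0.0583).

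Probe sets with no gene symbol or several, which enter no comparison above, were tested in a fit over 28067 probe sets, and 3 of 4268 passed, all higher in penicillin mice on high-fat diet. The strongest read 9.475, 9.009 and 9.503 in penicillin mice and 7.515, 7.636 and 7.407 in controls and rose by 1.81 ± 0.25, and the others rose by 0.68 ± 0.12 and 0.67 ± 0.09.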

How the results depend on the processing

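The 47 genes were recomputed under 25 alternatives that keep the threshold, some of which did not test every gene. In 1170 such values 0 reversed, 921 stayed past an adjusted p of 0.05 and 249 did not. As the groups did not overlap in any of the 47, leaving out or reweighting arrays could not reverse a sign. A reversal was possible only with other probe sets, normalisation or covariates, so the 0 says little about stability. The count of 47 was 183 with array weights, 89 with the 18S signal as a covariate, 118 at an adjusted p under 0.1, 19 at 0.01 and 148 without the 3 arrays of low 18S signal. That last fit was added after seeing the data, leaves penicillin chow with 1 mouse, assumed to vary like the others, and shared 40 genes with the 47. The count ran from 21 to 113 when single arrays were left out, and under the other alternatives it stayed within 1.5 times. A similar count did not mean the same genes. Adding the clock score as a covariate gave 34 genes, 31 of them among the 47. With only the 6 high-fat arrays 37 genes passed, 26 of them among the 47. The interaction count of 6 was 15 with array weights, 2 with the replicate block, 0 at an adjusted p under 0.01, 1 with the 18S signal and 2 with the clock score as a covariate, 24 without the 3 low-18S arrays, and 0 to 10 without single arrays. The cause of these shifts was not tested.

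With the replicate number as a block 35 genes passed on high-fat diet, 34 of them among the 47. Deviations of same-numbered mice correlated at 0.17, 0.11 and 0.05. Only 2 of the 3 exceeded 0.1, where all were required, and the labels name nothing that a number marks, so the numbers were not taken as pairing the mice. That 5 of the 6 arrays correlated best with their own number is a hint of pairing from the data. Genes dim in a group have compressed differences.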

Other observations

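The 4 genes nearest to the threshold on the far side were all higher in penicillin mice on high-fat diet. Ugdh is described above. Abhd6, a monoacylglycerol hydrolase, read 10.57, 10.16 and 10.48 in penicillin mice and 9.83, 9.90 and 9.83 in controls, a difference of 0.55 ± 0.10 (adjusted p = 0.0517). Anxa5, an annexin that binds phosphatidylserine, read 11.90, 11.45 and 11.66 in penicillin mice and 11.10, 10.98 and 10.82 in controls, at 0.70 ± 0.13 (adjusted p = 0.0517). Entpd5, a nucleotidase of the endoplasmic reticulum, read 11.69, 11.36 and 11.50 in penicillin mice and 10.86, 10.89 and 10.63 in controls, at 0.73 ± 0.14 (adjusted p = 0.0517).

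The penicillin high-fat mice were not equally far from the controls. Of the 35 higher genes, penicillin high-fat 1 had the highest of the 3 values in 19, penicillin high-fat 2 in 7 and penicillin high-fat 3 in 9, and the lowest value fell to penicillin high-fat 2 in 19, to penicillin high-fat 3 in 14 and to penicillin high-fat 1 in 2. Of the 12 lower genes penicillin high-fat 1 had the lowest value in 7 and penicillin high-fat 2 the highest in 6.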
